A study of Mus musculus with 2 samples.

Results

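The genes described here are 38 genes of mitosis and the mitotic spindle, a list of members matched by gene name to the array's non-control probes, out of 37074 gene names on it. All 38 were found, with 74 probes, and were read in 46C cells, a mouse embryonic stem cell line that carries a green fluorescent protein reporter at the Sox1 locus and was grown in serum with LIF on feeder cells that were taken off before harvest. There were 2 groups with 1 one-colour Agilent array each, cells with a control short hairpin (shCtrl) and cells with one that targets LincU, a long noncoding RNA (shLincU). The study's title links LincU to naive pluripotency through a limit on ERK signalling. The control sample is titled WT, and its genotype label and description give the control hairpin. The number of hairpins, the time after their introduction and whether cells were pools or clones are not given in the sources used here. LincU itself was not analysed here, so no check of the knockdown was made and directions follow the labels alone.

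With 1 array per group there was no replicate, and no p-value is given. Each value is a log2 signal relative to the 75th percentile of its own array, and each difference is shLincU minus shCtrl. The ± beside a difference is built from the errors that the scanner software assigns to the signals. It comes largely from an error fraction preset in that software and is no measured spread between cultures. For a gene with several probes, the errors of its probes were combined as if independent. The ± is therefore smaller for genes with more probes, whether or not the probes agree. The 75th percentile of the signal was 626 for shCtrl and 420 for shLincU. Well above background were 60.9% and 57.9% of probes, and no spot was saturated. All 10 embryonic stem cell markers, among them Pou5f1 and Sox2, were well above background on both arrays, with a median difference of -0.0055. Of 18 fibroblast markers, 17 were well above background on each array, and of the 16 measured on both, 3 were higher and 7 lower by 1.5-fold or more. By 2-fold or more, 5 were lower and 0 higher, a size passed by 2.69% of all genes in either direction. The 5 were Dcn (-2.41), Ccl2 (-2.24), Lox (-2.15), S100a4 (-1.88) and Col1a2 (-1.20), each on 1 measured probe. The 3 higher by 1.5-fold or more were Tagln (0.88), Twist2 (0.69) and Col3a1 (0.64), also each on 1 measured probe. Of the 16, 8 lay above 0 and 8 below, with a median of -0.0071. The summed signal of the fibroblast list is dominated by its bright genes. With each array scaled to its 75th percentile, it was 1.21 times as high on shLincU, against 1.09 times for the stem cell list. The part of residual feeder cells in the values below was not tested.

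Mitosis is driven by cyclin-dependent kinase 1 with its A and B cyclins and by the Polo and Aurora kinases, which reorganise the cytoskeleton and condense the chromosomes. Kinetochores then capture spindle microtubules under the watch of the spindle checkpoint, which holds back the anaphase-promoting complex until every chromosome is attached. Embryonic stem cells divide fast with a short first gap phase. Many of these genes are transcribed late in the cycle through shared promoter elements, the cell cycle genes homology region (CHR) and the CCAAT box.

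None of the 38 genes was 1.5-fold apart between the arrays in either direction, a size passed by 9.62% of the 21042 genes measured on both arrays. Among the 10521 genes at or above the median signal of all genes, where 36 of the 38 lay, 4.57% passed it. The 38 differences ran from -0.40 for Aurkb to 0.54 for Pttg1, with a median of 0.036, against 0.020 for all genes. They were above 0 in 23 genes and below 0 in 15, and 53.1% of all genes were above 0. In 32 of the 38 genes the difference was no more than 0.25 either way, as it was in 61.9% of all genes and in 71.2% of those at or above the median signal. The SD between the 38 genes was 0.20, against 0.40 over all genes and 0.29 over those at or above the median signal. The software's error for a gene with a single measured probe, as 18 of the 38 are, has the same size of 0.20, but it is largely preset and no measured spread. RNA was pooled from all cells of a culture, so the share of dividing cells and the RNA per dividing cell cannot be told apart.

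**Figure D1:**
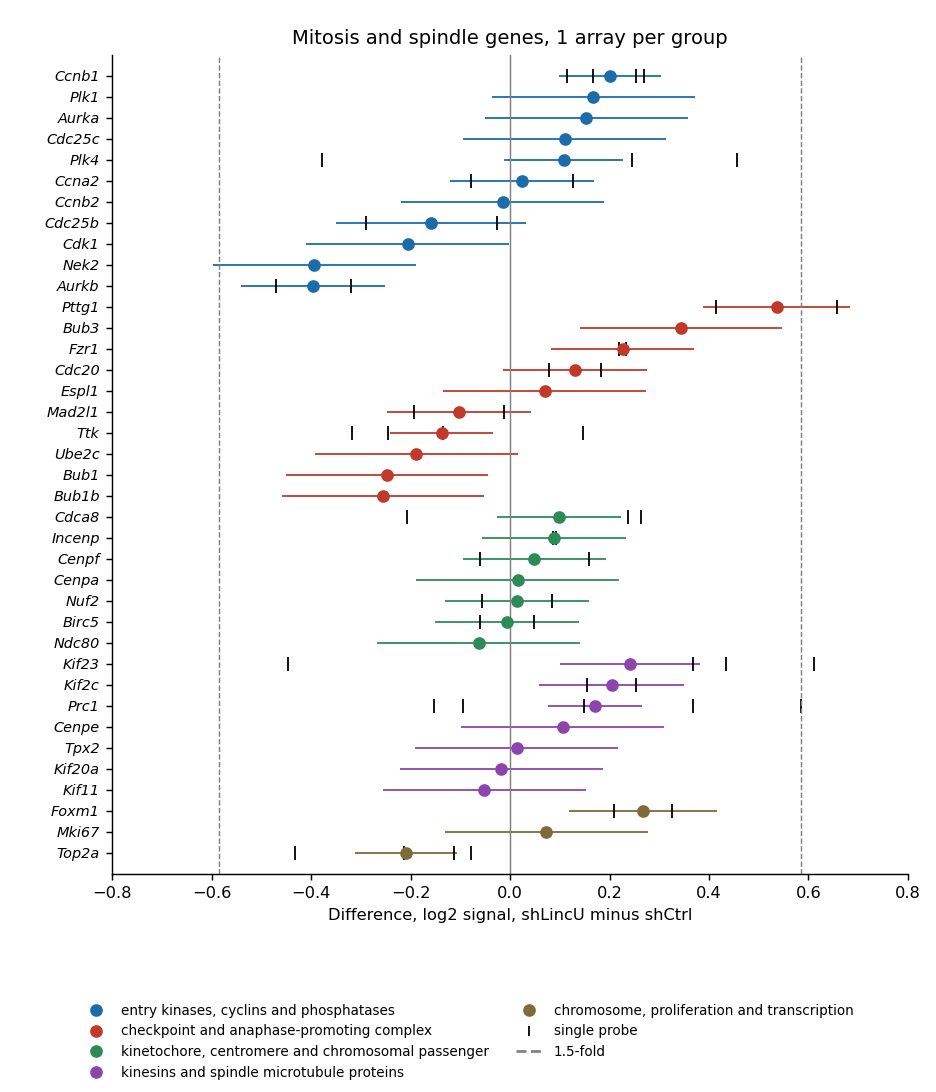
Difference in log2 signal (x axis, shLincU minus shCtrl) for each of the 38 genes (y axis), coloured by group. Dots are means over the probes measured on both arrays, and bars the scanner software's errors combined over those probes. Black ticks are the single probes of genes with several, and dashed lines 1.5-fold. All 38 dots lie between the dashed lines, from -0.40 for Aurkb to 0.54 for Pttg1.

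**Figure D2:**
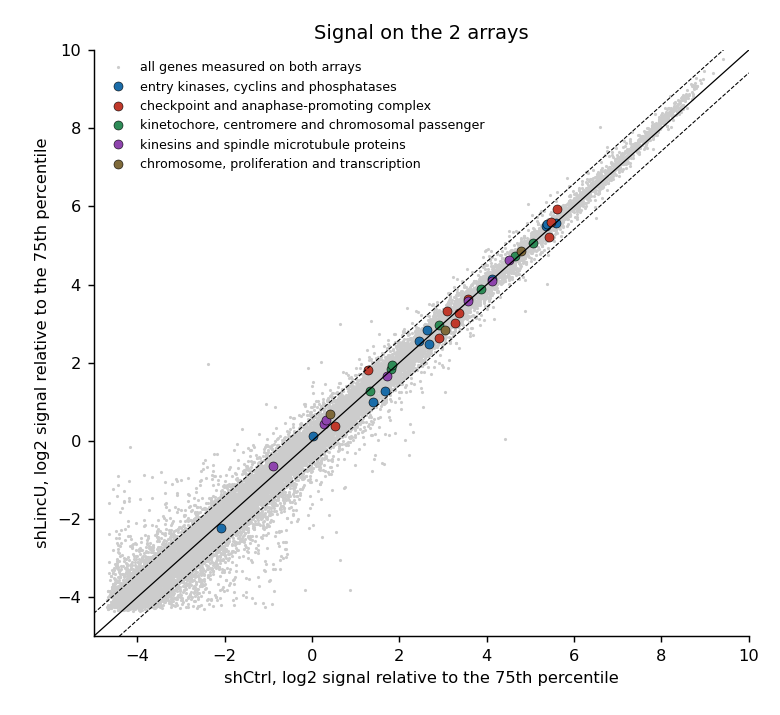
Log2 signal relative to the 75th percentile on the shCtrl array (x axis) and the shLincU array (y axis), 1 point per gene, for all 21042 measured genes in grey and the 38 mitosis and spindle genes in colour; the solid line marks equal values and the dashed lines 1.5-fold. The coloured points lie within the dashed lines, and 36 of them lie at or above the median signal of all genes.

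The promoters of these genes were searched for the elements named above, which the match by gene name does not use. RefSeq promoter sequences of the mouse build GRCm38.p6, from 250 bases before to 50 after an annotated start, were matched to 31 of the 38 genes by symbol, with 33 promoters. TTTGAA, the core of the CHR, was present on either strand in 22 of the 33 promoters (66.7%), against 17.9% of all 32851 promoters of the same length. Promoters of other mitotic genes held it in 35.6% and those of S phase genes in 15.6%. CCAAT, which the factor NF-Y binds, was present on either strand in 26 (78.8%), against 37.4% of all promoters. In promoters of other mitotic genes its share was 52.3% and in those of S phase genes 57.8%. Both motifs were present in 20 (60.6%), against 6.95% of all promoters, 24.2% of those of other mitotic genes and 6.67% of those of S phase genes. Bub3 and Prc1 each count with 2 overlapping promoters. Counted by gene, TTTGAA was present in 20 of 31 (64.5%), CCAAT in 24 (77.4%) and both in 18 (58.1%). The shares of all genes were 20.2%, 41.1% and 7.97%. The variants TTCGAA and TTTAAA were present in 4 and 10 of the 33 promoters, 12.1% and 30.3%, against 1.56% and 13.2% of all. Within 100 bases before and 50 after the start, TTTGAA was present in 60.6% of the promoters and in 8.01% of all. A match of letters is not evidence that a protein binds there.

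**Figure D3:**
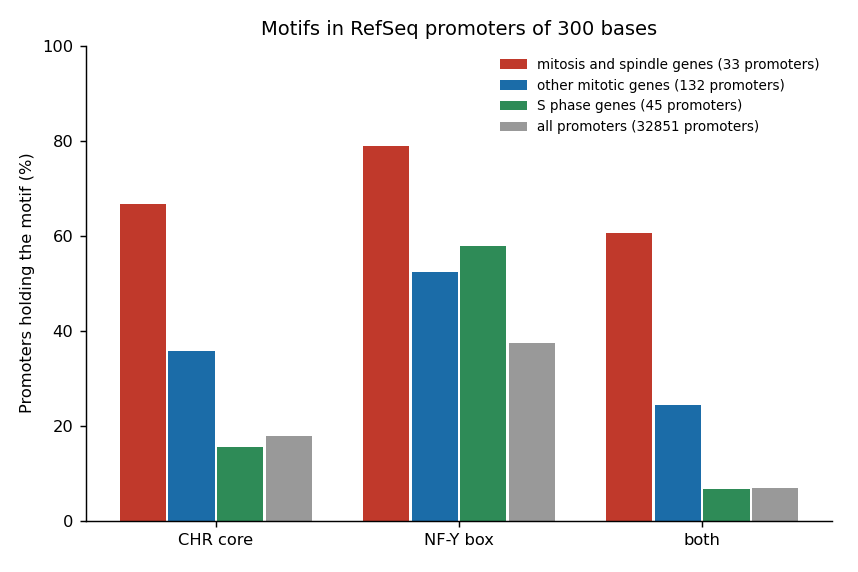
Share of promoters (y axis, percent) that hold the CHR core, the box bound by NF-Y, or both (x axis), on either strand, for mitosis and spindle genes (33 promoters), other mitotic genes (132), S phase genes (45) and all RefSeq promoters (32851). The mitosis and spindle genes have the tallest bar for each motif, 66.7%, 78.8% and 60.6%.

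The 4 promoters below show this arrangement; they belong to the genes with the highest shCtrl signal among those holding both motifs, and capitals mark each TTTGAA and CCAAT in either orientation (TTCAAA and ATTGG on the other strand). The last has a CCAAT that overlaps an inverted copy of itself.
Bub3 chr7:131560120-131560419 + strand: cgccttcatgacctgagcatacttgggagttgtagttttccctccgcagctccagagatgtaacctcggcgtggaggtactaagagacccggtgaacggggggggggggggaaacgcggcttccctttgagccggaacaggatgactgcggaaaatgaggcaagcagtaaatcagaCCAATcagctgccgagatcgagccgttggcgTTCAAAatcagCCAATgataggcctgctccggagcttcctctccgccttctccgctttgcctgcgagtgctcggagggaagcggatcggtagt
Ccnb2 chr9:70421505-70421804 - strand: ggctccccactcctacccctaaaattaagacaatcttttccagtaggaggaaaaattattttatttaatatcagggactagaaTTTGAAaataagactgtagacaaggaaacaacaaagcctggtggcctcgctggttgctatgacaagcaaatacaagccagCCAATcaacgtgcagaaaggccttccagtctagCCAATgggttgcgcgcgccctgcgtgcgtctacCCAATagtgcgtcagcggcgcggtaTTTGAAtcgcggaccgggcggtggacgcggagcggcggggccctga
Cdc20 chr4:118437294-118437593 - strand: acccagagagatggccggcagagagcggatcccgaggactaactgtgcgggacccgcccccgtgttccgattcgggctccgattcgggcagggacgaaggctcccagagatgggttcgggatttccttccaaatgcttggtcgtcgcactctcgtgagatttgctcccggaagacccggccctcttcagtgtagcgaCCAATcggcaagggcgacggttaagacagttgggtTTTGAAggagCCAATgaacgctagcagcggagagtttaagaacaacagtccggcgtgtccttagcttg
Ube2c chr2:164769679-164769978 + strand: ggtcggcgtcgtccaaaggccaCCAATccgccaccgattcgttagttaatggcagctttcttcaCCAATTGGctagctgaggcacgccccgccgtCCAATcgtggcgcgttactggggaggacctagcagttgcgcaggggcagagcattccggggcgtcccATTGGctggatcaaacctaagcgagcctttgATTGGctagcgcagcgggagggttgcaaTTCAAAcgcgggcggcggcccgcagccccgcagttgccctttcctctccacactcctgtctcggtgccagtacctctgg
In the Bub3 promoter the CHR core begins 43 bases before the start and the CCAAT boxes at 74 and 32 bases before it. In Cdc20 it begins 18 bases before the start, with CCAAT boxes at 53 and 8 bases before it, and in Ube2c 29 bases before the start. Ccnb2 holds the core at -167 and again at 5, counted from the start. The 20 genes with TTTGAA in such a promoter had a median difference of 0.059 and ran from -0.26 to 0.34. The 11 without it had a median of 0.014 and ran from -0.39 to 0.54, with Nek2 and Pttg1 at the ends. The difference between these medians was not tested.

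Kinases, cyclins and phosphatases of mitotic entry, 11 genes, had a median difference of 0.024, with 6 above 0 and 5 below. Cdk1, the catalytic subunit whose activation starts mitosis, was at 2.68 on shCtrl and 2.47 on shLincU, a difference of -0.21 ± 0.20. Its partner Ccnb1, cyclin B1, was at 2.63 and 2.83, a difference of 0.20 ± 0.10 over 4 probes that all lay above 0, from 0.11 to 0.27. Kinase and cyclin stood on opposite sides of 0. The other B-type cyclin, Ccnb2, was at 5.60 and 5.58, a difference of -0.015 ± 0.20, though its only spot lay beside discordant spots, neighbours that differed at least 2-fold between the arrays, as 6.03% of all spots do. Ccna2, cyclin A2, which acts from S phase into early mitosis, was at 4.12 and 4.14, a difference of 0.024 ± 0.14.

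The Aurora kinases were split. Aurka, which matures centrosomes and builds the spindle poles, was at 5.35 on shCtrl and 5.51 on shLincU, a difference of 0.15 ± 0.20. Aurkb, the kinase of the chromosomal passenger complex that corrects faulty attachments, was at 1.40 and 1.01, a difference of -0.40 ± 0.14, the lowest of the 38 genes. Its 2 probes were at -0.32 and -0.47; the second lay beside discordant spots, and without it the gene was at -0.32. Nek2, a kinase that separates centrosomes, was about as low, at 1.67 and 1.28, a difference of -0.39 ± 0.20 on a single probe. Plk1, the Polo kinase of mitotic entry and spindle assembly, was at 5.38 and 5.54, a difference of 0.17 ± 0.20. Plk4, the kinase that starts centriole duplication, was at 0.017 and 0.12, a difference of 0.11 ± 0.12 whose probes went both ways. The phosphatases that activate Cdk1 were near 0, Cdc25c at 0.11 ± 0.20 and the dim Cdc25b at -0.16 ± 0.19, which was at 0.053 with normexp background correction.

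Genes of the spindle checkpoint and the anaphase-promoting complex, 10 in all, had a median of -0.016, with 5 on each side of 0, and this group spread more widely than the others, with an SD of 0.27. The checkpoint kinases Bub1 and Ttk and the inhibitor subunits Bub1b and Mad2l1 all had means below 0. Bub1 was at 3.27 on shCtrl and 3.03 on shLincU, a difference of -0.25 ± 0.20, and Bub1b, which encodes BubR1, was at 2.90 and 2.64, a difference of -0.26 ± 0.20. Ttk, the kinase that recruits the checkpoint to kinetochores, was at -0.14 ± 0.10 over 4 probes that went both ways, from -0.32 to 0.15, and Mad2l1 was at -0.10 ± 0.14. Ttk was at 0.0058 in the upper rows of the array and -0.28 in the lower, and Bub1 was at 0.054 once its probe at background was averaged in. Bub3, the adaptor that carries Bub1 and BubR1 to the kinetochore, lay on the other side, at 5.60 and 5.94, a difference of 0.34 ± 0.20. Both activators of the anaphase-promoting complex were above 0, Cdc20 at 0.13 ± 0.14 and Fzr1, which encodes Cdh1, at 0.23 ± 0.14 with its 2 probes at 0.22 and 0.23. Ube2c, the ubiquitin-conjugating enzyme that works with the complex, was at 5.42 and 5.23, a difference of -0.19 ± 0.20.

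Securin and separase differed from each other in size. Pttg1, securin, which the complex degrades to release separase, was at 1.28 on shCtrl and 1.82 on shLincU, a difference of 0.54 ± 0.15 or 1.45-fold, the highest of the 38 genes. Its 2 probes, 0.42 for the one of strong signal (15721 and 14076 intensity units) and 0.66 for the weak one (147 and 155), were both above 0, and only the weak one passed 1.5-fold. Espl1, separase, which cuts cohesin at anaphase, was at 3.56 and 3.63, a difference of 0.070 ± 0.20. With the Aurkb and Top2a values, that of Pttg1 was 1 of 3 among the 38 that exceeded 2 times the ±. Of all genes 20.1% did, and of those at or above the median signal 16.4%. Passing depends on probe number, as the ± is smaller for genes with several probes, which all 3 have. Nek2, at -0.39 on 1 probe, did not pass, whereas Aurkb, at -0.40 on 2, did.

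Kinetochore, centromere and passenger genes, 7 in all, lay closest together, from -0.063 to 0.098, with a median of 0.015 and an SD of 0.056. Ndc80 and Nuf2, which pair in the complex that binds microtubule ends, were at -0.063 ± 0.20 and 0.014 ± 0.14. Cenpa, the histone variant that marks the centromere, was at 3.87 on shCtrl and 3.89 on shLincU, a difference of 0.015 ± 0.20, and Cenpf, a large protein of the outer kinetochore, was at 0.049 ± 0.14. The partners of Aurkb in the passenger complex did not share its value. Birc5, which encodes survivin, was at 5.06 and 5.05, a difference of -0.0061 ± 0.14, Incenp, the scaffold that activates the kinase, was at 4.64 and 4.73, a difference of 0.088 ± 0.14, and Cdca8, which encodes borealin, was at 0.098 ± 0.12. Both probes of Incenp gave 0.09, whereas those of Cdca8 were at 0.26, 0.24 and, for the weakest, -0.21. Cdca8 was at 0.26 by its brightest probe and at 0.24 by the median over probes.

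Kinesins and spindle microtubule proteins, 7 in all, had a median of 0.11, with 5 above 0. Kif11, the motor that pushes spindle poles apart, was at 1.71 on shCtrl and 1.66 on shLincU, a difference of -0.052 ± 0.20, and Tpx2, which activates Aurora A on the spindle, was at 3.58 and 3.59, a difference of 0.013 ± 0.20. Cenpe, the kinetochore kinesin that brings chromosomes to the spindle equator, was at 0.11 ± 0.20, and Kif2c, a kinesin that takes microtubules apart, was at 0.20 ± 0.15 with probes at 0.16 and 0.25. Of the genes of the central spindle and cytokinesis, Kif20a was at -0.018 ± 0.20, Prc1, which bundles antiparallel microtubules, at 0.17 ± 0.095, and Kif23 at 0.24 ± 0.14. The means of Prc1 and Kif23 cover probes that went both ways, and without its spot beside discordant spots Prc1 was at 0.067.

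The remaining 3 genes are those of chromosome structure, proliferation and transcription. Top2a, the topoisomerase that untangles sister chromatids, was at 3.05 on shCtrl and 2.84 on shLincU, a difference of -0.21 ± 0.10. Its 4 probes all lay below 0. Those on the RefSeq mRNA were at -0.11 and, for the brightest, -0.078 from a spot beside discordant spots. Those annotated to other transcripts were at -0.43 and -0.21. Mki67, the proliferation antigen that coats mitotic chromosomes, was at 4.78 and 4.85, a difference of 0.072 ± 0.20. Foxm1, the transcription factor that drives many of the other genes, was at 0.42 and 0.68, a difference of 0.27 ± 0.15 with 2 probes at 0.21 and 0.33.

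Of the 74 probes, 71 were well above background on both arrays. The other 3, for Foxm1, Plk4 and Bub1, read 4.31 to 5.41 intensity units, under the lowest signal well above background (23.8 on shCtrl, 20.7 on shLincU), and are annotated to transcripts or clones other than the RefSeq mRNA. In the 20 genes with several measured probes the median SD between probes was 0.14, against 0.18 for all 7132 such genes. Of the 71 probes, 2 were 1.5-fold apart, 1 of Pttg1 and 1 of Kif23, against 10.1% of all probes well above background on both arrays, dim ones included. Probes of 3 genes, Kif23, Plk4 and Prc1, differed from each other by more than 0.5, against 26.5% of all genes with several probes. Each of these has 3 or more measured probes, as 7 of the 38 genes do, and among all genes with at least 3 probes the share was 42%.

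For Kif23, a motor of the central spindle, and for Plk4, even probes on RefSeq mRNAs with an open reading frame through the probe lay on opposite sides of 0. Their sequences are shown, with no letter singled out by capitals, so that the measured stretches can be told apart; coordinates are the mm9 positions in the array's annotation, and where they span more than the probe's 60 bases the probe crosses an exon junction.
Kif23 chr9:61767733-61768853 - strand: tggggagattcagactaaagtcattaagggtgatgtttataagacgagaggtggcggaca
Kif23 chr9:61774902-61774961 - strand: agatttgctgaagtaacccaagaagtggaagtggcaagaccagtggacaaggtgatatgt
Plk4 chr3:40618961-40620246 + strand: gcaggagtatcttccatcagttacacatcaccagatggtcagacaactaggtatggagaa
Plk4 chr3:40609055-40609114 + strand: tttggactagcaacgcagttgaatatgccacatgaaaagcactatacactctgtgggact
Plk4 chr3:40605770-40605906 + strand: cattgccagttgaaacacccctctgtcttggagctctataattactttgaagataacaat
The first Kif23 probe read 3647 intensity units on shCtrl and 1798 on shLincU, a difference of -0.45. The second read 1441 and 1248, a difference of 0.37. Kif23 runs on the minus strand, and the probe with the negative difference, its brightest, lay nearest its 3′ end, while the other 3 were between 0.37 and 0.61. Of these, the probes at 0.43 and 0.61 were weak, reading no more than 97.5 intensity units on either array. They are annotated to clones other than the RefSeq mRNA, and the one at 0.43 read close to the lowest signal well above background. The Plk4 probes, in the order printed, were at -0.38, 0.24 and 0.46, and here too the one with the negative difference lay nearest the 3′ end. It read 1857 and 960 intensity units, and the other probes 563 and 448, and 243 and 223. Prc1 was less regular, with 0.37, 0.58, -0.096, -0.15 and 0.15 from the 5′ end onward, the 0.58 from a spot beside discordant spots. Its probes at 0.37 and 0.58 were weak, reading no more than 184 intensity units, and are annotated to transcripts other than the RefSeq mRNA. Those at -0.15 and 0.15, on that mRNA, were its brightest. Top2a ran the other way along the gene, with -0.43, -0.21, -0.11 and -0.078, the -0.43 and -0.21 from transcripts other than the RefSeq mRNA. Isoforms, probe position and weak signal cannot be told apart with these probes, and the mean over probes is a poor summary for Kif23, Plk4 and Prc1.

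Of other genes of mitosis, 138 by name, 136 were measured on both arrays, with a median of -0.032. By 1.5-fold or more, 1 was higher and 4 lower, 3.68% in all, beside 9.62% of all genes (4.78% higher and 4.85% lower). Among all genes at or above the median signal, where 115 of the 136 lay, the share was 4.57%. Mis18a, which readies centromeres for the loading of new CENP-A, was the only one of the 136 at least 2-fold apart, a size passed by 2.69% of all genes. It was at 2.50 on shCtrl and 1.35 on shLincU, a difference of -1.15 ± 0.20, but on a single probe whose spot lay beside discordant spots. Next lowest were Aurkc, the Aurora kinase of germ cells, at -0.78 ± 0.14 with 2 probes at -0.85 and -0.70, Spdl1, an adaptor of dynein at kinetochores, at -0.77 ± 0.21, Rbl2, which encodes the pocket protein p130, at -0.66 ± 0.23 on a weak spot (165 and 70.2 intensity units), and Kif18a, a kinesin that dampens chromosome movements, at -0.49 ± 0.20. The highest were E2f4, a repressor of cell cycle genes, at 0.59 ± 0.20, Racgap1, the partner of Kif23 in the centralspindlin complex, at 0.40 ± 0.12 over 3 probes, the condensin subunit Ncapd2 at 0.36 ± 0.14 and the spindle pole protein Numa1 at 0.35 ± 0.15. By function, the medians ran from -0.059 for cohesin and condensin (17 genes) to 0.0064 for the centrosome (16 genes).

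S phase genes, which mark the preceding part of the cycle, had a median of -0.015 over 50 genes, an SD of 0.20 and 1 gene at least 1.5-fold apart, Ccne2, cyclin E2, at 0.62 ± 0.28 on a weak spot (67.8 and 69.9 intensity units). The difference between this median and that of the mitosis and spindle genes, 0.036, was not tested. The plot of cumulative distributions sets the 3 cell cycle lists beside all genes, dim ones included, whose spread is wider than that of genes at or above the median signal.

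**Figure D4:**
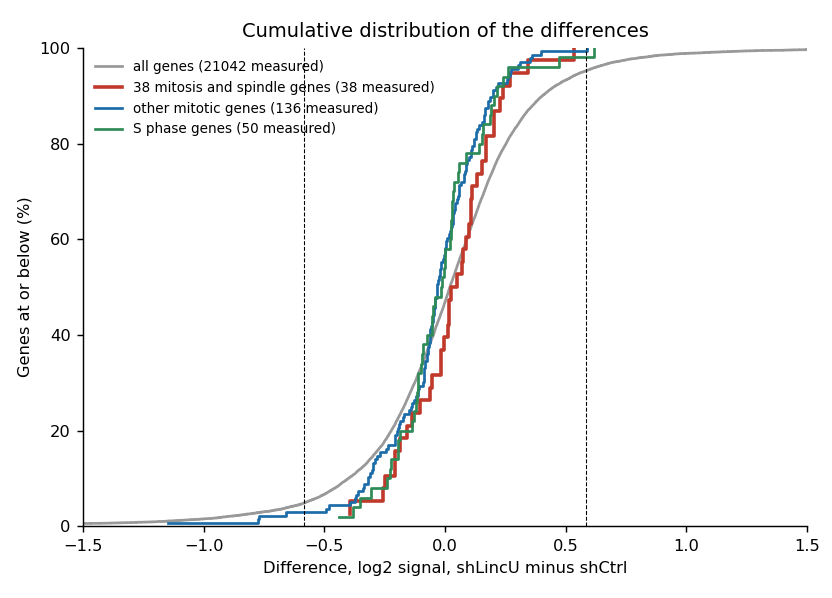
Cumulative share of genes (y axis, percent) at or below a given difference in log2 signal (x axis, shLincU minus shCtrl) for all measured genes, the 38 mitosis and spindle genes, other mitotic genes and S phase genes; dashed lines mark 1.5-fold. The curve of the 38 genes starts at -0.40, ends at 0.54 and is steeper than that of all genes.

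Scaling set each value against the general signal of its array. Before scaling, all 38 genes gave a lower signal on the shLincU array, at 0.51 to 0.97 times the shCtrl signal, beside a ratio of the 75th percentiles of 0.67. The 8 E1A spike-in controls that were measured, RNA added in a fixed amount, went the other way, by 0.32 on the log2 scale. Scaled to them, the median of the 38 genes was -0.86 and that of all genes -0.87, which lie 0.016 apart, as they do when scaled to the 75th percentile. The labelling protocol starts from the same amount of RNA for both arrays, so a difference in RNA per cell cannot be read from them.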

How the data were processed

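Total RNA was labelled with Cy3 and hybridised to 1 array per group, per the labels. The deposited scanner files hold intensity values made with Feature Extraction 10.7.1.1 (Agilent), which the submitters' processing notes name; the processed intensity is background-corrected and detrended within the array, per the file headers. Flags of 0 or 1 are other columns of the deposited files. The deposited value table holds log2 values; its slope on the log2 scanner signal was 0.98 and 1.01, its normalization and centring are not given in the sources used here.

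Control spots and outlier spots (98 and 138) were left out, spots of a probe were averaged, and log2 of the processed intensity minus the array's 75th percentile was taken. A gene, by the array's gene name, is the mean over those of its probes that both arrays read well above background. RefSeq accessions gave the same symbol for 60 of the 74 probes and another for 0; the other 14 have none in the table. A spot was beside discordant spots if at least 2 of its 14 nearest neighbours differed at least 2-fold in the same direction; this held for 4 of the 74 probes and 6.03% of all spots.

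Members and lists were chosen with earlier results of these data known. Named were all 38 members, and other mitotic genes at least 2-fold apart with the next 4 highest and 4 lowest. Markers or S phase genes were to be named only if at least 2-fold apart. Pou5f1, Sox2, Ccne2, Tagln, Twist2 and Col3a1 were named outside this rule. The limit of printed probes to RefSeq mRNAs with an open frame was set with values known. Simulated data served to test the calculation. Alternatives were normexp (offset 50), quantile normalization, median centring, E1A scaling, the value table, no background filter, the brightest probe, the median over probes, outliers kept, upper or lower rows of the 384, spots beside discordant spots left out, and 2-fold. The software was limma 3.58.1 in R 4.3.3 and, in Python 3.11.15, pandas 2.3.3, numpy 2.4.6 and matplotlib 3.10.9.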

Additional observations from a re-analysis of the deposited data

How the results depend on the processing

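No paired analysis was possible because only 1 array was made per group, so no array could be left out. The count of members at least 1.5-fold apart stayed at 0 in all settings but 2: it was 36, all lower, with E1A scaling, and 1 in the upper rows, where Pttg1 is read by its weak probe alone (0.66). E1A scaling moved the median of all genes to -0.87, and the medians to -0.86 for the 38 genes, -0.87 for entry kinases and cyclins, -0.91 for the checkpoint group, -0.88 for kinetochore genes, -0.79 for kinesins, -0.82 for the remaining 3, -0.92 for other mitotic genes and -0.91 for S phase genes. In every other setting these medians moved by less than 0.18. The upper rows held 27 of the 38 genes, the lower rows 25, and 37 were left without spots beside discordant spots. Outside E1A scaling 27 of the 38 kept their sign in every setting. The 11 that did not were Ccna2, Plk4, Cdc25b, Bub1, Ttk, Nuf2, Cenpa, Cenpf, Birc5, Kif23 and Tpx2. For the 18 genes with 1 measured probe, some settings could only return the same value or none. Those were the brightest probe, the median over probes, the upper or lower rows, and leaving out spots beside discordant spots. The 1.5-fold counts over all genes were 1005 higher and 1020 lower, against 576 and 394 with normexp, 3246 and 2952 without a background filter (median 0.14), 85 and 17765 with E1A scaling, and 547 and 519 in the upper rows. Naming probes by RefSeq accession and keeping genes at or above the median signal (228 and 253) were added after seeing the data. Signal over background limits Cdc25b, and 1 array per group limits all values.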
